A study of Mus musculus with 8 samples.

Results

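Macrophages and their precursors are defined by a small set of genes, of which 8 are described here across 8 RNA libraries of mouse bone marrow adipocyte cultures. They are Csf1r, Csf1, Spi1, Maf, Lyz2, Adgre1, Mpeg1 and Aif1, chosen by name as lineage factors and markers, and all 8 were found among the 54134 genes of the deposited table. The cells were wild-type bone marrow stem cells taken through 14 days of adipogenic differentiation in culture, and the labels call them adipocytes. The libraries labelled Control (n = 2) had that differentiation alone, those labelled GC (n = 3) were then kept for 24 hours in 1e-06 M dexamethasone (DEX), which activates the glucocorticoid receptor, and those labelled GC+GW9662 (n = 3) had DEX with GW9662, an inhibitor of PPARγ, for the same time. The dose of GW9662 is not given in the sources used here, no group received GW9662 alone, and the labels do not tie the libraries of a group to different cultures. The p-values below thus rest on the spread of these libraries alone, and that spread may be technical.

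The pathway that joins these genes is well known. CSF1 (M-CSF), secreted in bone marrow mainly by stromal and adipocyte-lineage cells, binds the tyrosine kinase receptor CSF1R on monocytes, macrophages and osteoclast precursors and keeps them alive and dividing. The transcription factor PU.1, product of Spi1, sets up the myeloid programme and drives Csf1r itself, and c-Maf (Maf) acts later, in mature macrophages. The remaining members are markers of the mature cell: lysozyme M (Lyz2), the adhesion receptor F4/80 (Adgre1), the pore-forming protein perforin-2 (Mpeg1) and the actin-binding protein IBA1 (Aif1).

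Values are TPM, in which reads are divided by gene length, so that levels of genes can be set side by side. A trend with transcript length still differed between libraries. The ratios between genes, the orders of their levels and the sums of lists below are not corrected for it. Recovered from the steps between low TPM values, the estimated depth was 18190000 to 27900000 reads per library. Libraries of a group correlated at 0.947 to 0.994 across tested genes, and libraries of different groups at 0.78 to 0.906. GC replicate 1 stood apart from the other GC libraries, with a median log2 difference of 0.21 in the tenth of genes with the shortest transcripts and -0.82 in the tenth with the longest. Fkbp5 and Tsc22d3, textbook targets that glucocorticoids induce, were lower in the libraries labelled GC than in those labelled Control (58.5 ± 24.2 against 446 ± 24.1 TPM and 59.6 ± 7.70 against 557 ± 20.98 TPM, mean ± SD). In the libraries labelled GC+GW9662, also given DEX, they stood at 95.4 ± 14.3 and 429 ± 27.2 TPM, again below Control. That goes against the labels, and whether labels were exchanged was not tested. Directions below, and the word treated, are therefore those of the libraries as labelled. The cultures also held macrophage RNA beyond the 8 genes. Of 28 other macrophage markers 27 passed the filter on low values and Timd4 was at 0, and the list summed to 28242 to 28753 TPM in Control, against 1465 to 1481 TPM for 14 adipocyte markers (12 passed, and Lep was at 0). Most of the macrophage sum in Control came from the complement genes C1qa, C1qb and C1qc. In bulk RNA fewer macrophages and less RNA per macrophage cannot be told apart.

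The promoters of 4 of the 8 genes (Csf1, Lyz2, Mpeg1 and Aif1) had an entry in the RefSeq promoter set of GRCm38.p6. The entries missing are those of Csf1r, Spi1, Maf and Adgre1. All 4 available are shown, and they include the genes with the largest fall below (Mpeg1) and the smallest (Lyz2) and the ligand. Each line gives the 250 bases before the transcription start, 5′ to 3′ on the gene's strand. The start meant here is that of the promoter entry. For Aif1 and Lyz2 it lies inside the gene span given further below, so these stretches overlap the first bases of that span. Capitals mark the core GGAA of ETS family sites, which PU.1 binds, on either strand (GGAA or TTCC). The Mpeg1 sequence lies at chr19:12460520-12460769 (plus strand), that of Aif1 at chr17:35176053-35176302 (minus strand), that of Csf1 at chr3:107760470-107760719 (minus strand) and that of Lyz2 at chr10:117282273-117282522 (minus strand).
Mpeg1: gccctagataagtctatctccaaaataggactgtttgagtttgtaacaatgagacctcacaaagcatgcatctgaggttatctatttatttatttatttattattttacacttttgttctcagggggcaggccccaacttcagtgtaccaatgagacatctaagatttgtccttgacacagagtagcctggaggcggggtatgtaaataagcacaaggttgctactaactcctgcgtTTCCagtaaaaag
Aif1: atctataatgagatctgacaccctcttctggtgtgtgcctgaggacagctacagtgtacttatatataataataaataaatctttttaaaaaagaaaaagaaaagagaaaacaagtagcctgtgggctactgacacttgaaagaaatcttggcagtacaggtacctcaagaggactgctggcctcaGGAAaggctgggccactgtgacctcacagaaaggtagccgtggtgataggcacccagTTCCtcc
Csf1: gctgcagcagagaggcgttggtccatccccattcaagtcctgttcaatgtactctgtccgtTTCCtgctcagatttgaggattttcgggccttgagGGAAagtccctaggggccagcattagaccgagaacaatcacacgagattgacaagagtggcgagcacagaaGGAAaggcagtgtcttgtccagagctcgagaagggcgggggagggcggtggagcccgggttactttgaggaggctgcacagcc
Lyz2: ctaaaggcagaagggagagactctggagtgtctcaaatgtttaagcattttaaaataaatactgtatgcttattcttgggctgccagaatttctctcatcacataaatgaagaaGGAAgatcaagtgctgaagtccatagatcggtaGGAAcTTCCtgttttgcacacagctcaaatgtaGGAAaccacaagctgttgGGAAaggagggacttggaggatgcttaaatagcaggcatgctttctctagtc
The core occurred 1 time before Mpeg1, 2 times before Aif1, 3 times before Csf1 and 5 times before Lyz2. It is common: 93.4% of 32851 promoters of this length held it, with a median of 3. The longer site GAGGAA, which contains the core, occurred before Aif1, on the opposite strand, 7 bases from the start, and in 23.3% of all promoters. The glucocorticoid receptor hexamer AGAACA was found before Csf1 (124 bases from the start) and, on the opposite strand, before Mpeg1 (136 bases), and in 16.1% of all promoters. The Maf hexamer TGCTGA was found before Lyz2 (125 bases; 16.1% of all), the C/EBP site TTNNGNAA before Lyz2 (55 bases; 36.8% of all), and the nuclear receptor hexamer AGGTCA, which PPARγ and its partner RXR read as a repeat, before Aif1 on the opposite strand (46 bases; 14.0% of all). All 6 motifs were searched on both strands. These are matches of letters and say nothing of binding.

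In the libraries labelled GC every one of the 8 genes was lower than in Control, and no group overlapped in any of them. All 8 passed the test in this direction (limma on log2(TPM + 1), Benjamini-Hochberg adjusted p under 0.05 over all 14985 tested genes), against a background of 39.1% of tested genes called lower and 16.2% called higher. In 49.7% of tested genes the groups did not overlap with GC lower, and in 22.2% with GC higher. The median change over the 8 was -2.28 on the log2 scale and that of all tested genes -0.38. The means of Mpeg1, Maf and Csf1r were 46.5-fold, 39.5-fold and 24.9-fold lower, those of Aif1, Csf1, Adgre1 and Spi1 3.55-fold to 9.93-fold lower, and that of Lyz2 1.74-fold lower. With the length trend removed the log2 differences of Mpeg1, Maf, Csf1r and Csf1 were smaller, at -4.54, -4.01, -3.84 and -1.77, and all 4 still passed.

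**Figure D1:**
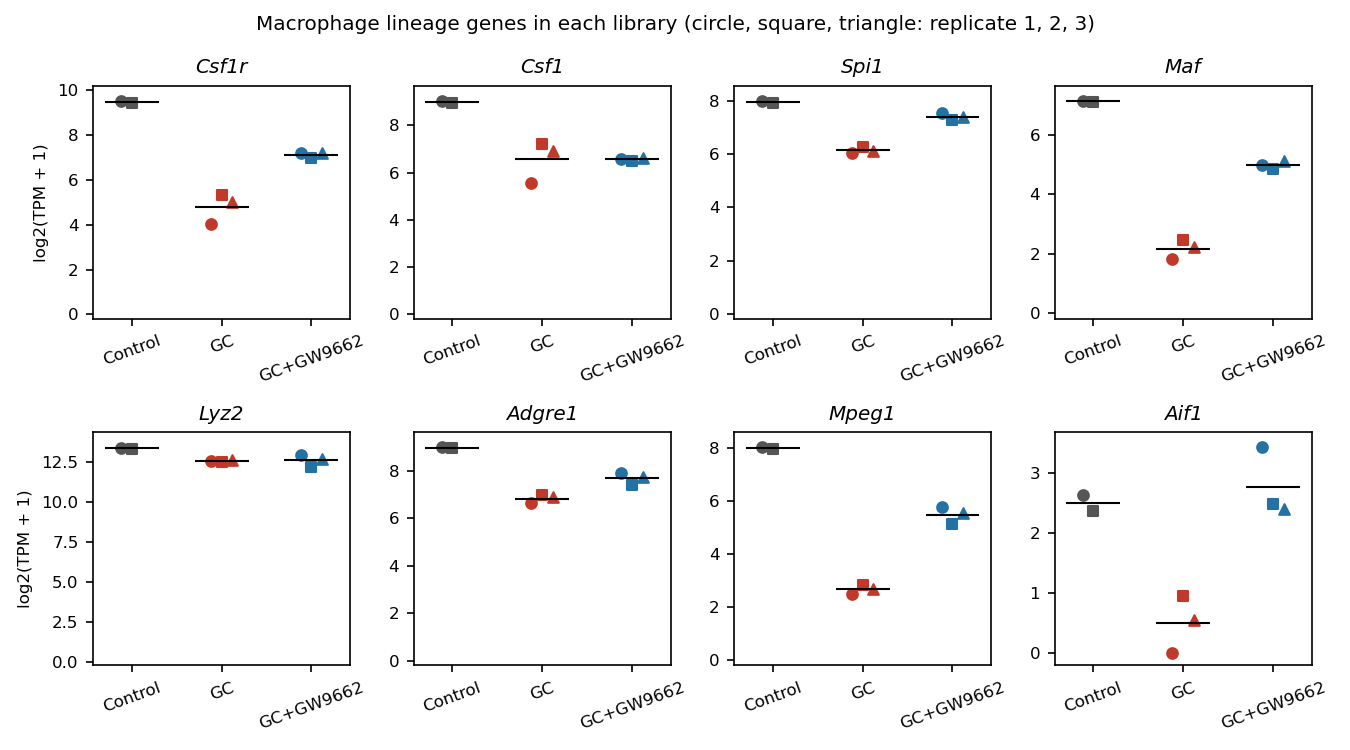
Level of each of the 8 genes in every library, as log2(TPM + 1), with 1 panel per gene; grey, red and blue points are libraries labelled Control, GC and GC+GW9662, marker shape gives the replicate, and the bar is the group mean. All 8 genes were lower in every GC library than in both Control libraries; Csf1r, Maf and Mpeg1 sat far below (means of 28.5, 3.54 and 5.39 TPM), while Lyz2 kept a mean of 6136 TPM.

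The ligand and its receptor were both abundant in Control. Csf1r (ENSMUSG00000024621, chr18:61105572-61132149, GRCm38, plus strand) measured 729.7 and 688 TPM in Control, 15.4, 39.4 and 30.8 TPM in GC, and 147, 123 and 147 TPM in GC+GW9662. The 3 groups were fully separated, with GC+GW9662 between the others. The receptor gene fell by 4.68 (log2, SE 0.33, limma adjusted p = 1.3e-05) in GC against Control, and was higher by 2.33 ± 0.29 (adjusted p = 2.9e-04) in GC+GW9662 than in GC. Between GC+GW9662 and Control the difference was -2.35 ± 0.33 (adjusted p = 0.0018), which left the GC+GW9662 mean at 19.6% of Control. This difference from Control was smaller with median-ratio scaling (-1.66) and with the trend of differences with transcript length removed (-1.02, adjusted p = 0.0032). Part of Csf1r (873 of its 5774 exon bases) overlaps Hmgxb3 on the other strand, and these libraries carry no strand. Hmgxb3 itself stood at 17.2 ± 1.35 TPM in Control, 14.6 ± 7.60 TPM in GC and 2.97 ± 0.324 TPM in GC+GW9662, and so was lowest in GC+GW9662 where Csf1r was lowest in GC.

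Csf1 (ENSMUSG00000014599, chr3:107741048-107760469, minus strand) measured 524 and 495 TPM in Control, 46.5, 149 and 118 TPM in GC, and 94.0, 88.9 and 97.1 TPM in GC+GW9662. Both treated groups lay far below Control, and the GC libraries spread on either side of the GC+GW9662 libraries. The fall in GC against Control was 2.43 (log2 -2.43 ± 0.41, adjusted p = 0.0014), and GC+GW9662 against Control gave a like value (-2.44 ± 0.41, adjusted p = 0.0026), which was -1.75 with median-ratio scaling and -1.39 with the length trend removed. GC+GW9662 against GC gave -0.005 ± 0.37 (adjusted p = 0.99), with a 95% interval from -0.86 to 0.84. This value turned on GC replicate 1: without it Csf1 was lower in GC+GW9662 than in GC (-0.50, adjusted p = 0.0033).

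The ratio of ligand to receptor TPM showed the unequal falls of the pair. Both Control libraries gave close to the same ratio, 0.718 and 0.719, the GC libraries gave 3.02, 3.78 and 3.84, and the GC+GW9662 libraries 0.64, 0.726 and 0.661. GC replicate 1, low in both genes, had a ratio close to the other GC libraries. The log2 ratio was 2.29 higher in GC than in Control and 2.38 lower in GC+GW9662 than in GC, each with exact permutation p = 0.1 (two-sided), the smallest these group sizes allow. Between GC+GW9662 and Control it differed by -0.09 (exact permutation p = 0.4). The ratio was chosen after its values were seen, as were those below. Over all 12 ratio comparisons the smallest Benjamini-Hochberg adjusted value was 0.12, so none passed at these group sizes.

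The other known ligand of the receptor, Il34, behaved otherwise in GC+GW9662. It measured 19.7 and 18.6 TPM in Control, 1.23, 3.26 and 2.29 TPM in GC, and 19.95, 19.9 and 23.1 TPM in GC+GW9662. Il34 fell in GC (-2.68 ± 0.27, adjusted p = 7.9e-05) and was higher in GC+GW9662 than in GC (2.80 ± 0.24, adjusted p = 3.5e-05), and GC+GW9662 against Control did not pass (0.12 ± 0.27, adjusted p = 0.71, 95% interval -0.49 to 0.74). Csf1 TPM was 26.6 times that of Il34 in both Control libraries, 37.9 to 51.6 times in GC and 4.20 to 4.71 times in GC+GW9662. The log2 ratio of Csf1 to Il34 was 3.33 lower in GC+GW9662 than in GC and 2.58 lower than in Control (exact permutation p = 0.1 each, the smallest possible). Markers of marrow stroma, a main source of CSF1, moved with Csf1 in part: 13 of 14 fell in GC, 9 were higher and 1 lower in GC+GW9662 than in GC, and their summed level was 1674 to 1759 TPM in Control, 173 to 239.5 TPM in GC and 608 to 654 TPM in GC+GW9662. Over all tested genes 39.1% were called lower in GC against Control, and 28.3% higher and 33.5% lower in GC+GW9662 against GC. In GC+GW9662 against Control 13 of the 14 stromal markers were lower and 1 was higher (median -2.05). The shares of all tested genes there were 48.6% lower and 14.1% higher. The part of the stromal markers in the Csf1 result was not tested.

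**Figure D2:**
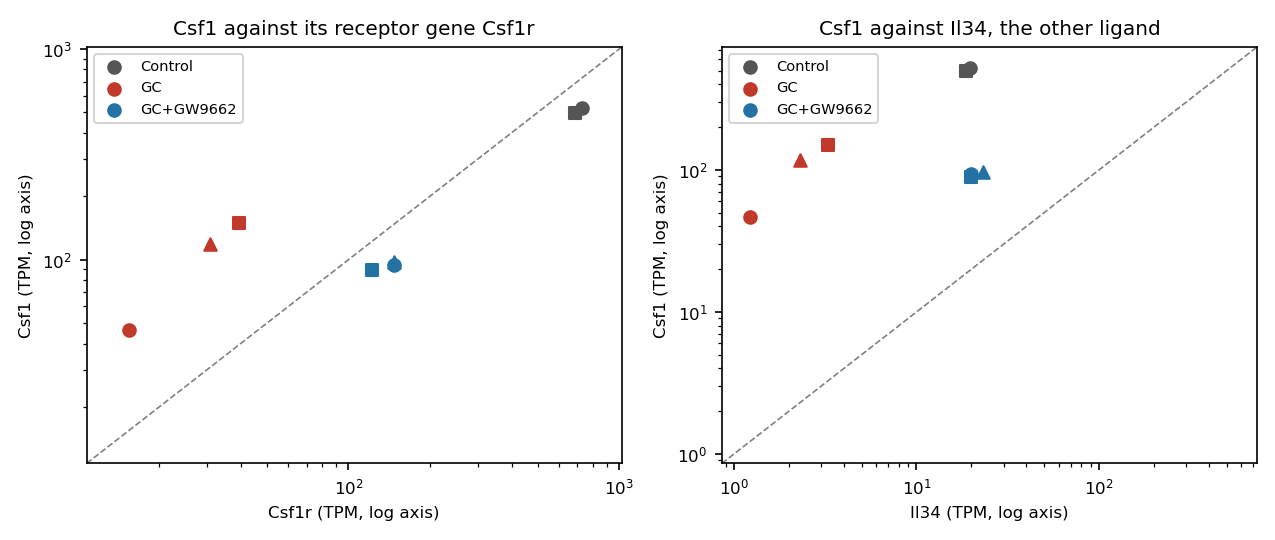
TPM of Csf1 against Csf1r (left) and of Csf1 against Il34, the other ligand of the receptor (right), in each library, both axes logarithmic; colours are the groups, marker shapes the replicates, and the dashed line marks equal TPM. The 3 GC libraries lie above the line in the left panel (ratios of 3.02 to 3.84) and all others below it (0.64 to 0.726); in the right panel every library lies above the line, with the GC+GW9662 libraries nearest to it (4.20 to 4.71).

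The lineage transcription factors differed in how far they fell. Spi1 (ENSMUSG00000002111, chr2:91082390-91115756, plus strand) measured 258 and 243 TPM in Control, 66.2, 76.0 and 69.2 TPM in GC, and 189, 154 and 169.7 TPM in GC+GW9662. Replicates were tight and the 3 groups did not overlap. Spi1 was lower in GC than in Control (-1.82 ± 0.12, adjusted p = 1.0e-05) and higher in GC+GW9662 than in GC (1.26 ± 0.11, adjusted p = 3.7e-05). GC+GW9662 against Control gave -0.55 ± 0.12 (adjusted p = 0.0055). That last call was lost without Control replicate 1 (-0.51, adjusted p = 0.054) and on recovered reads (limma voom, -0.06, adjusted p = 0.66), and scaling by the median ratio turned it (0.14, adjusted p = 0.34). Relative to the median of all genes it was -0.06.

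Maf (ENSMUSG00000055435, chr8:115682942-115707794, minus strand) fell much further. It measured 141 and 138 TPM in Control, 2.503, 4.47 and 3.64 TPM in GC, and 30.7, 27.6 and 33.9 TPM in GC+GW9662. No groups overlapped. The change in GC was -4.98 ± 0.20 (adjusted p = 8.9e-07), and GC+GW9662 was 2.82 ± 0.18 above GC (adjusted p = 7.9e-06) and 2.16 below Control (-2.16 ± 0.20, adjusted p = 7.6e-04). The difference from Control in GC+GW9662 was -1.47 with median-ratio scaling and -0.59 with the length trend removed (adjusted p = 0.014). The GC values rest on 159, 344 and 287 reads. Of 8241 exon bases of Maf 440 overlap Gm15655 on the other strand, which held 2.79 and 1.60 TPM in Control and was listed at 0 elsewhere.

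Other factors of the lineage were mixed. Of 26 listed, 22 were tested, and 16 fell, 2 rose and 4 did not pass in GC against Control, with a median of -1.22. The shares over all tested genes were 39.1% lower and 16.2% higher. Irf5, which drives inflammatory cytokine genes, and the ETS factor gene Fli1 fell furthest (105 to 6.995 TPM, -3.74 ± 0.18, and 31.8 to 3.59 TPM, -2.90 ± 0.31). The immediate early gene Egr1 (34.3 to 151 TPM, 2.02 ± 0.31) and Ets2 (43.2 to 162 TPM, 1.85 ± 0.22) rose. Adjusted p of these 4 ranged up to 8.0e-04. Irf8, which acts with PU.1 in monocyte development, fell from 40.4 to 8.25 TPM (-2.17 ± 0.17, adjusted p = 2.1e-05). Cebpa, a factor of early myeloid cells and also of adipocytes, stood at 254 ± 13.2 TPM in Control, 287 ± 17.4 TPM in GC and 236 ± 8.81 TPM in GC+GW9662 and did not pass in GC against Control (0.17 ± 0.10, adjusted p = 0.17). In GC+GW9662 against GC 7 of the 22 were higher, 6 lower and 9 did not pass, with a median of 0.27, near the background of 28.3% of tested genes called higher and 33.5% lower.

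The markers of the mature macrophage ranged from the largest fall to the smallest. Mpeg1 (ENSMUSG00000046805, chr19:12460779-12465284, plus strand) measured 256 and 245 TPM in Control, 4.66, 6.06 and 5.45 TPM in GC, and 52.8, 33.9 and 44.9 TPM in GC+GW9662. It changed by -5.30 ± 0.20 in GC against Control (adjusted p = 6.8e-07), and 0.254% of tested genes had a lower value. GC+GW9662 exceeded GC by 2.80 ± 0.17 (adjusted p = 7.1e-06), and stood at 17.5% of the Control mean (-2.51 ± 0.20, adjusted p = 5.4e-04). The last difference was -1.82 with median-ratio scaling and -1.31 with the length trend removed (adjusted p = 0.0031). The 3 groups did not overlap.

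Adgre1 (ENSMUSG00000004730, chr17:57358686-57483529, plus strand) measured 501 and 493 TPM in Control, 98.1, 124 and 116 TPM in GC, and 236, 165 and 214 TPM in GC+GW9662. It fell by 2.14 in GC (SE 0.17, adjusted p = 2.3e-05), was 0.85 ± 0.15 higher in GC+GW9662 than in GC (adjusted p = 0.0018) and remained 1.29 below Control (-1.29 ± 0.17, adjusted p = 0.0016). The last difference was -0.60 with median-ratio scaling and -0.56 with the length trend removed (adjusted p = 0.0054). Every GC+GW9662 library lay above every GC library and below both Control libraries.

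Lyz2 (ENSMUSG00000069516, chr10:117277331-117282321, minus strand) was the most abundant of the 8 in every library. It measured 10917 and 10444 TPM in Control, 6140, 5954 and 6315 TPM in GC, and 7887, 4639 and 6698 TPM in GC+GW9662. Both treated groups lay below Control, and the GC+GW9662 libraries spread around the GC libraries. Lyz2 fell by 0.80 in GC (-0.80 ± 0.20, adjusted p = 0.010), and GC+GW9662 differed from GC by 0.03 ± 0.18 (adjusted p = 0.90, 95% interval -0.39 to 0.44) and from Control by -0.77 ± 0.20 (adjusted p = 0.011). Both calls against Control were lost without Control replicate 1 (adjusted p = 0.066 and 0.069) and with median-ratio scaling (-0.25, adjusted p = 0.41, and -0.08, adjusted p = 0.80). The call of GC+GW9662 against Control was also lost on recovered reads (-0.28, adjusted p = 0.20). Relative to the median of all genes, the fall in GC was 0.42 (log2 -0.42).

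Lyz2 has a neighbour, Lyz1, whose transcript is 92.0% identical over an end-to-end alignment, so reads of the pair can be confused. Lyz1 measured 26.1 ± 2.27 TPM in Control, 21.7 ± 1.84 TPM in GC and 14.6 ± 3.40 TPM in GC+GW9662. Lyz2 exceeded it 395-fold and 427-fold in the Control libraries, 259-fold to 315-fold in GC and 413-fold to 461-fold in GC+GW9662. How many reads of the pair were lost or exchanged was not measured.

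Aif1 (ENSMUSG00000024397, chr17:35170991-35176068, minus strand) was the lowest of the 8 in every library. It measured 5.18 and 4.12 TPM in Control (48 and 41 reads), 0, 0.944 and 0.461 TPM in GC (0, 10 and 5 reads), and 9.74, 4.60 and 4.23 TPM in GC+GW9662 (88, 44 and 41 reads). The 0 in GC replicate 1 allows up to 3 reads, or 0.343 TPM, for counting error alone. All GC libraries lay below all others, and the Control and GC+GW9662 libraries overlapped. Aif1 fell in GC (-1.99 ± 0.39, adjusted p = 0.0028) and was higher in GC+GW9662 than in GC (2.26 ± 0.34, adjusted p = 8.0e-04). At so few reads the sizes depended on the scale: over all alternatives they ran from -3.63 to -0.82 in GC against Control and from 1.003 to 4.43 in GC+GW9662 against GC, all passing. For Aif1 GC+GW9662 against Control did not pass (0.28 ± 0.39, adjusted p = 0.56, 95% interval -0.61 to 1.16). GC+GW9662 replicate 1 held more than both other libraries of its group together.

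Set side by side, GC+GW9662 against GC gave 6 of the 8 genes higher and none lower, against a background of 28.3% of tested genes called higher and 33.5% called lower, and Csf1 and Lyz2 did not pass. The 6 were also the genes whose groups did not overlap in this direction, which held for 30.3% of tested genes, while in 33.8% they did not overlap with GC+GW9662 lower. The median over the 8 was 1.76 and that of all genes -0.11. Against Control, GC+GW9662 was lower in 7 of the 8 (62.7% of tested genes were called in either direction, 48.6% lower and 14.1% higher, and in 57.3% the groups did not overlap with GC+GW9662 lower), with a median of -1.72 against -0.49 for all genes. Any pair of the 3 comparisons shares the libraries of a group, so they are not independent. As a percentage of the Control mean, GC+GW9662 stood at 17.5% for Mpeg1, 18.3% for Csf1, 19.6% for Csf1r, 22% for Maf, 41.2% for Adgre1, 60% for Lyz2, 68.3% for Spi1 and 133% for Aif1. Neither these shares nor their order held under every setting. With the length trend removed, the log2 differences from Control were -1.39 for Csf1, -1.31 for Mpeg1, -1.02 for Csf1r, -0.98 for Lyz2, -0.59 for Maf, -0.56 for Adgre1, -0.36 for Spi1 and -0.27 for Aif1, so that Maf and Adgre1 lay closer to Control than Lyz2.

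**Figure D3:**
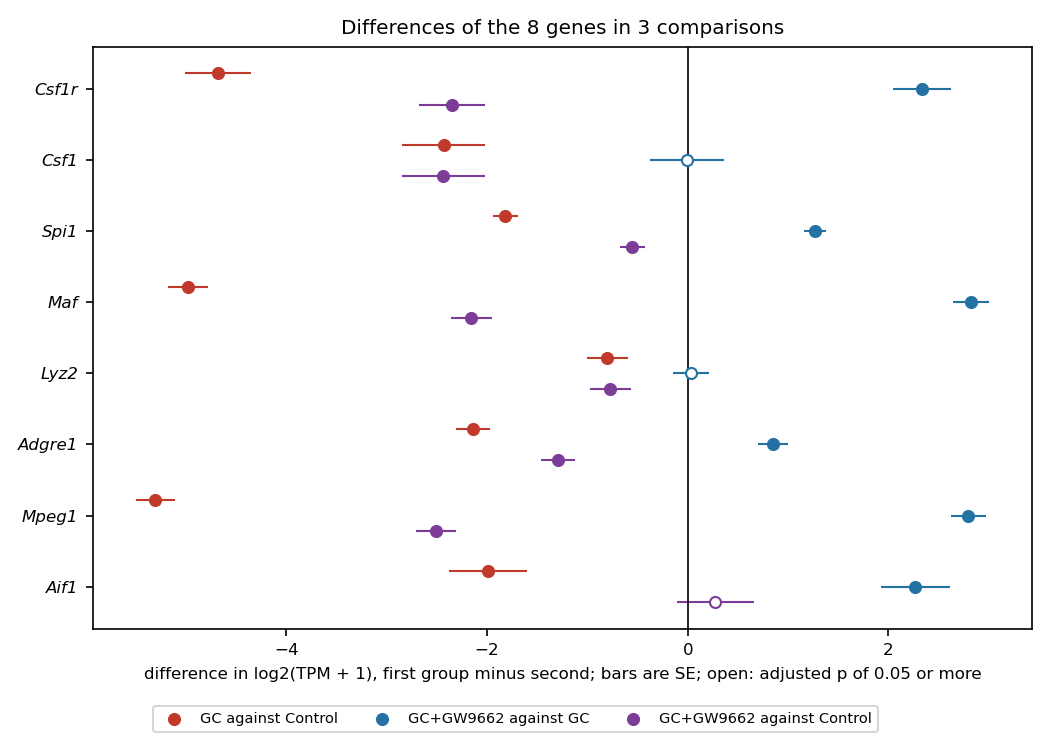
Difference in log2(TPM + 1) of each gene in GC against Control (red), GC+GW9662 against GC (blue) and GC+GW9662 against Control (purple), with SE bars from limma; open points had an adjusted p of 0.05 or more. All 8 red points lie below 0, 6 blue points lie above it, and the blue points of Csf1 and Lyz2 lie on it.

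The order of the levels changed between groups. In Control the means ran Lyz2, Csf1r, Csf1, Adgre1, Mpeg1, Spi1, Maf and Aif1, from 10681 to 4.65 TPM, and the neighbours Csf1 and Adgre1, and Mpeg1 and Spi1, overlapped between libraries. In GC they ran Lyz2, Adgre1, Csf1, Spi1, Csf1r, Mpeg1, Maf and Aif1, from 6136 to 0.468 TPM; Csf1 overlapped both Adgre1 and Spi1. In GC+GW9662 they ran Lyz2, Adgre1, Spi1, Csf1r, Csf1, Mpeg1, Maf and Aif1, from 6408 to 6.19 TPM, and of these Adgre1 and Spi1 overlapped, while the lowest Mpeg1 library (33.94 TPM) and the highest Maf library (33.86 TPM) all but met. Per 100 TPM of Lyz2, Csf1r stood at 6.68 and 6.59 TPM in the Control libraries, 0.251, 0.661 and 0.487 TPM in those of GC, and 1.86, 2.64 and 2.19 TPM in those of GC+GW9662. Spi1 stood at 2.36 and 2.33, then 1.08, 1.28 and 1.10, then 2.40, 3.32 and 2.53 TPM on the same scale. The Csf1r to Lyz2 ratio differed between GC and Control by -3.94 (log2) and that of Spi1 to Lyz2 by -1.03, each with exact permutation p = 0.1, the smallest possible.

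Profiles of log2(TPM + 1) over the 8 libraries, each centred on its own mean, were compared by their root mean square distance. Among the members Maf and Mpeg1 were closest (distance 0.211 on the log2 scale), followed by Csf1r and Maf (0.279) and by Adgre1 and Spi1 (0.305), and Lyz2 and Mpeg1 were farthest apart (1.81). Among 8775 other genes with a mean of at least 5 TPM, the nearest to Mpeg1 were Rassf2 (0.092), Cd93 (0.117) and Myo1f (0.167), and the nearest to Maf were Cd93 (0.138), Rassf2 (0.164) and Amotl2 (0.167). Csf1r lay nearest to Stab1, a scavenger receptor gene (0.104), Alpl, the bone alkaline phosphatase gene (0.128), and the collagen gene Col1a1 (0.149). Alpl had group means of 78.1 TPM (Control), 2.68 TPM (GC) and 16.1 TPM (GC+GW9662), and Col1a1 of 351, 16.4 and 77.8 TPM in that order, although neither is a macrophage gene. Spi1 lay nearest to Mxra8 (0.051), Ephx1 (0.056) and Gpx3 (0.058), and Adgre1 to Nceh1 (0.049), Rsu1 (0.055) and Gja1 (0.073). The nearest to Csf1 were Gnptab (0.040), Znfx1 (0.082) and Parm1 (0.085), to Lyz2 Nt5dc1 (0.101), Reep3 (0.104) and Pcmtd2 (0.107), and to Aif1 Gfra4 (0.297), Btbd6 (0.317) and the folate receptor gene Folr2 (0.339). The 8 libraries fall into 3 groups, so these distances describe mainly the group differences.

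A list of 20 genes held Il34 and genes that transmit or damp the signal of the CSF1 receptor. Of these 19 were tested, and 13 fell, 2 rose and 4 did not pass in GC against Control (median -1.57), beside 39.1% of all tested genes called lower and 16.2% higher. Ptpn6, the phosphatase SHP-1 of blood cells, fell from 98.3 to 1.93 TPM (-5.10 ± 0.22, adjusted p = 1.1e-06). Socs1, an inhibitor of cytokine signalling, rose from 1.88 and 1.63 TPM to 69.1, 81.9 and 70.6 TPM (4.76 ± 0.21, adjusted p = 1.4e-06) and stood at 2.40, 2.61 and 1.46 TPM in GC+GW9662. The adaptor gene Grb2 rose from 125 to 195 TPM (0.63 ± 0.10, adjusted p = 0.0012). In GC+GW9662 against GC 8 of the 19 were higher, 6 lower and 5 did not pass (median 0.01). Over all tested genes 28.3% were called higher and 33.5% lower. Ptpn6 was higher (3.42 ± 0.20) and Socs1 lower (-4.58 ± 0.19).

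Among 12 other myeloid growth factors and receptors 9 were tested, Csf3 was at 0, and 6 fell, none rose and 3 did not pass in GC against Control (median -1.14). Csf2ra, a subunit of the GM-CSF receptor, fell from 61.7 to 5.21 TPM (-3.37 ± 0.23, adjusted p = 1.1e-05) and stood at 20.6 TPM in GC+GW9662. Il6ra fell from 9.54 to 3.25 TPM (-1.35 ± 0.27, adjusted p = 0.0035). With GW9662, 5 were higher than in GC, 3 lower and 1 did not pass (median 0.45). The shares over all tested genes were 28.3% higher and 33.5% lower there, and 39.1% lower in GC against Control.

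The other macrophage markers were counted in the same way, 27 of 28 being tested. In GC against Control 20 fell, 1 rose and 6 did not pass (median -2.57), and in GC+GW9662 against GC 19 were higher, 2 lower and 6 did not pass (median 1.80). The shares over all tested genes were 39.1% lower and 16.2% higher in the first, and 28.3% higher and 33.5% lower in the second. Mrc1, the mannose receptor, fell furthest, from 435 and 407 TPM to 1.17, 5.10 and 4.499 TPM (-6.66 ± 0.39, adjusted p = 5.3e-06), followed by the engulfment receptor gene Mertk (136 to 3.37 TPM, -5.05 ± 0.33, adjusted p = 8.6e-06). Cd68 was the marker that rose, from 979 to 2651 TPM (1.43 ± 0.15, adjusted p = 1.2e-04). The 6 that did not pass in GC against Control, named after their values were seen, were Ccr2, Cd14, Cd53, Gpnmb, Lgals3 and Lilrb4a. Cd14, a receptor for bacterial lipopolysaccharide, stood at 501 ± 10.4 TPM in Control, 456 ± 35.6 TPM in GC and 436 ± 28.6 TPM in GC+GW9662 (-0.14 ± 0.10 in GC against Control, adjusted p = 0.30). Against Control, 13 of the 27 were lower in GC+GW9662, 1 was higher and 13 did not pass (median -0.34), which is near the background of 48.6% of tested genes called lower and the median of -0.49 over all genes. The summed level was 28242 to 28753 TPM in Control, 9645 to 9970 TPM in GC and 27603 to 29160 TPM in GC+GW9662. Most of it in Control and GC+GW9662 came from the complement genes C1qa, C1qb and C1qc, named after their values were seen. Their means were 7942, 6969 and 2907 TPM in Control, 289, 422 and 136 TPM in GC, and 9986, 6305 and 3070 TPM in GC+GW9662. The sum thus describes mainly these genes in Control and GC+GW9662, and it is not corrected for the trend with transcript length.

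**Figure D4:**
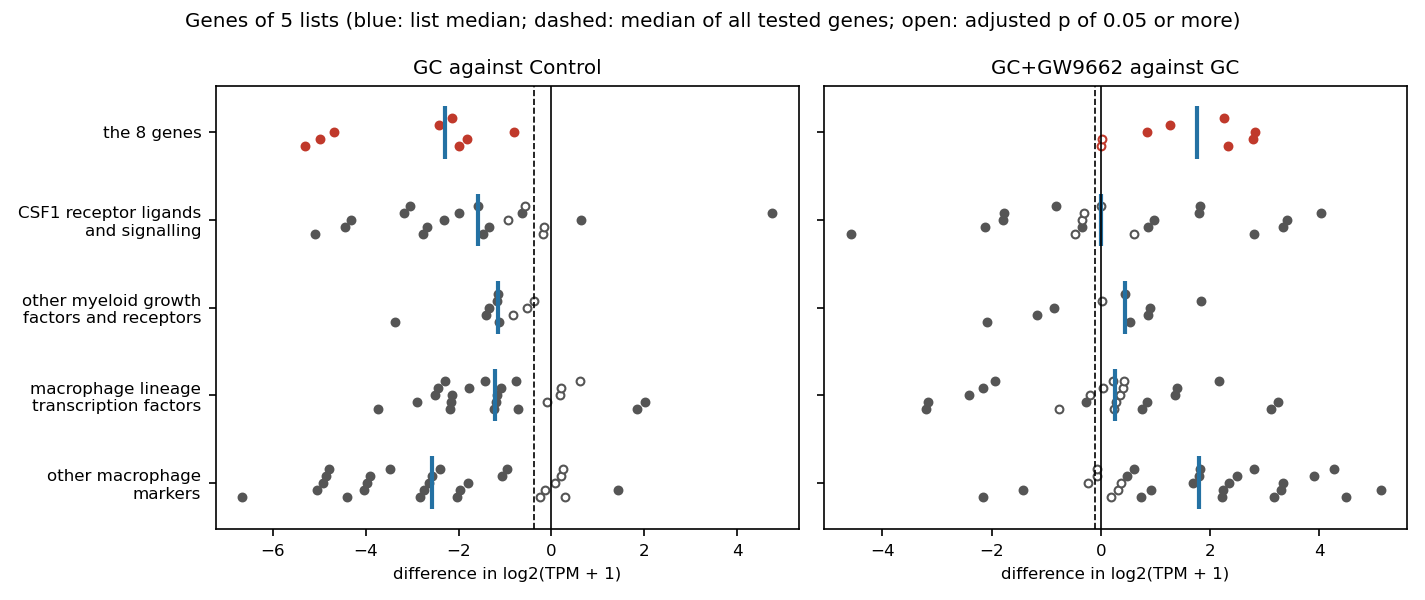
Differences in log2(TPM + 1) of the 8 genes (red) and of the tested genes of 4 related lists (grey) in GC against Control (left) and GC+GW9662 against GC (right); filled points passed at adjusted p under 0.05, blue bars are list medians and the dashed line is the median of all tested genes. The medians of the 8 genes (-2.28 and 1.76) and of the other macrophage markers (-2.57 and 1.80) lie farther from 0 than those of the signalling, growth factor and transcription factor lists. Among lists not shown, adipocyte markers had medians of -3.37 and 3.85, and marrow stromal markers of -2.85 and 1.18.

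Markers of other cells moved with the same labels, and their part in the results above was not tested. Of 12 tested adipocyte markers 10 fell and 1 rose in GC against Control (39.1% and 16.2% of all tested genes). In GC+GW9662 against GC 10 were higher and 2 lower (28.3% and 33.5% of all tested genes). Their median was -3.37 in the first comparison and 3.85 in the second, both larger in size than the medians of the 8 genes (-2.28 and 1.76). The adipocyte markers summed to 200 to 288 TPM in GC and 1262 to 1407 TPM in GC+GW9662. Neutrophil markers summed to 26.9 to 33.3 TPM in Control, 250 to 550.5 TPM in GC and 77.6 to 88.1 TPM in GC+GW9662. Of the 12 neutrophil markers 4 were tested and Ltf was at 0. S100a8 made up nearly all of the sum in GC (380.8 ± 153 TPM). Lymphocyte markers summed to at most 37.5 TPM in any library, with Ms4a1 at 0, mast cell and basophil markers to at most 5.90 TPM with Ms4a2 at 0, erythroid markers to at most 2.62 TPM with Hbb-bt at 0, and endothelial markers to at most 10.3 TPM with Cldn5 at 0.

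**Figure D5:**
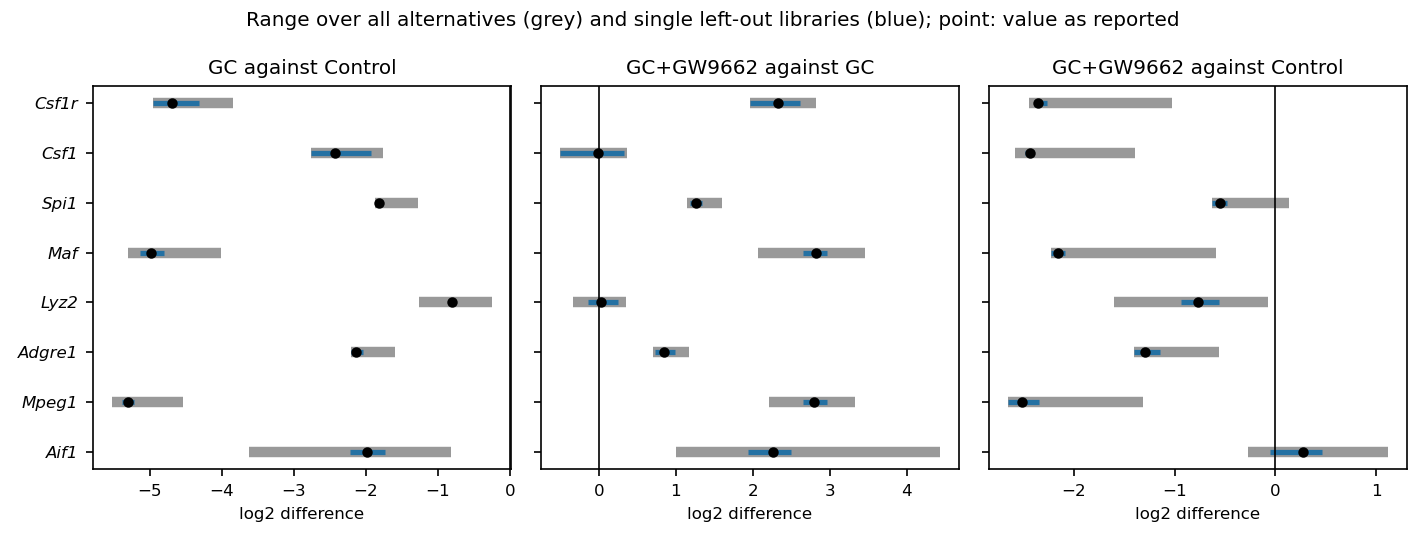
For each gene and comparison, the difference in log2 as reported (point), its range over all alternative settings (grey) and over the fits that each left out 1 library (blue). In GC against Control all ranges stay below 0; in GC+GW9662 against GC those of Csf1 and Lyz2 cross 0, and in GC+GW9662 against Control those of Spi1 and Aif1 cross it.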

How the data were processed

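RNA was measured in 8 Smart-Seq2 libraries, a protocol that amplifies cDNA and does not mark the strand. The authors deposited TPM values per gene, which were used as given. The submitters' processing notes name fastp, HISAT2 2.1.0 and featureCounts; their order, genome build and annotation are not given in the sources used here. Replicates are named by title, and bracketed labels differ for Control (Control2 is C3).

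From 54232 rows, 54134 symbols were kept once each, and 27 date-like symbols were restored by Ensembl ID. Starts and ends equalled GENCODE M21 (GRCm38) in 97.6% of rows. At the length of the longest M21 transcript, 98.4% to 98.8% of values up to 10 reads were whole multiples of 1 read (tolerance 0.05), which gave the depth. Intervals and floors cover counting error only.

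A gene was tested where 2 or more libraries reached 1 TPM (14985 genes, all 8 members among them). The test was made as log2(TPM + 1), a scale that understates changes of low genes, with limma 3.58.1 run under R 4.3.3 with group means over all 8 libraries and an empirical Bayes prior following the mean level. The 2-sided p-values were adjusted by Benjamini and Hochberg over all tested genes, per comparison, with 0.05 as the threshold. Ratios were compared by exact permutation (scipy 1.17.1). Other work used Python 3.11.15, numpy 2.4.6, pandas 2.3.3, the R package data.table (version 1.17.8), biopython 1.88 and matplotlib 3.10.9.

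Members and lists were chosen with earlier results of these data known. Genes named were the members, the 3 nearest profiles of each, up to 2 rises and 2 falls in GC against Control with at least 5 TPM from each signalling, growth factor, transcription factor and macrophage list, and Il34, Cebpa, Lyz1, Fkbp5 and Tsc22d3; a few others under this rule are left out here. Irf8, Cd14, S100a8, Hmgxb3, Gm15655 and the tested osteoclast markers were named after their values were seen. Whether replicate numbers mark pairs could not be settled, since groups of 2 or 3 libraries leave too few deviations to compare. Alternatives changed the pseudocount (0.1 or 5), the filter (none, or 5 TPM), the scaling (by median ratio, by quantiles, or after dropping mitochondrial genes and the top 20), the prior (constant), the libraries in the fit (only the groups compared) and the block (replicate number by title or bracket). Others were removal of the length trend (running median of 501 genes), each library left out, and, added after seeing the data, limma voom on recovered reads.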

Additional observations from a re-analysis of the deposited data

How the results depend on the processing

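Of the values of the 8 genes in 3 comparisons under 21 alternatives, 479 kept their direction and their side of the threshold, 7 lost the call, 2 gained it and 13 changed sign; Lyz2 has no value in the rescaling that removes the top 20 genes, of which it is one. All sign changes were in differences that did not pass, except Spi1 in GC+GW9662 against Control (median-ratio scaling 0.14). Csf1 in GC+GW9662 against GC took 0.14 with median-ratio scaling, 0.37 with the length trend removed and 0.29 with voom, and -0.50 to 0.33 with 1 library left out. Lyz2 in that comparison took -0.33 with quantile normalization, -0.30 with the length trend removed and -0.14 to 0.24 with 1 library left out. Aif1 in GC+GW9662 against Control took -0.27 with the length trend removed, -0.055 to 0.46 with 1 library left out, and 1.12 (adjusted p = 0.031) with quantile normalization. The cause was not tested. Calls that held could still shrink: in GC+GW9662 against Control, removing the length trend took Maf from -2.16 to -0.59 and Csf1r from -2.35 to -1.02. Leaving out 1 library gave 5513 to 9233 genes passing in GC against Control, 7278 to 10759 in GC+GW9662 against GC and 5598 to 10329 in GC+GW9662 against Control, lowest without Control replicate 1 in the first and last; the members passing were 7 or 8, 6 or 7, and 5 to 7. Of 8291 calls in GC against Control 2428 were higher; median-ratio scaling moved the median of all genes from -0.38 to 0.06 and gave 4072 higher and 3946 lower, quantile normalization 4187 and 3915, and the length trend removed 4305 and 4082. In GC+GW9662 against Control (2114 higher, 7284 lower) these settings gave 4411 and 4687, 4216 and 4443, and 3294 and 3350, and voom 3612 and 5462; in GC+GW9662 against GC (4236 higher, 5017 lower) voom gave 5246 and 3990. Deviations of GC and GC+GW9662 libraries with the same replicate number correlated at -0.10, -0.12 and 0.08. With the replicate block by title numbers 7145, 8351 and 8368 genes passed in the 3 comparisons, and by bracketed numbers 7329, 8448 and 8365; the block changed no call of a member. Aif1, with 0 to 10 reads in GC, is the member that depth limits most.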

Other observations

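Cells close to macrophages in lineage were also listed. In GC against Control 39.1% of all tested genes were called lower and 16.2% higher, and the monocyte counts below are near these shares. Of 10 monocyte markers 9 were tested, of which 3 fell and 1 rose in GC against Control, with a median of 0.05, and they summed to 310 to 325 TPM in Control, 22.5 to 28.3 TPM in GC and 58.0 to 73.3 TPM in GC+GW9662. F13a1, a transglutaminase subunit gene named after its values were seen, made up most of that sum in Control (298 and 284 TPM). Of 10 osteoclast markers 6 were tested, with 4 lower and 2 higher in GC, and Ctsk, the collagen-degrading protease cathepsin K, stood at 71.1 ± 1.52 TPM in Control, 55.9 ± 1.53 TPM in GC and 58.2 ± 3.07 TPM in GC+GW9662 (-0.34 ± 0.10 in GC against Control, limma adjusted p = 0.024). Dendritic cell markers stayed low: 4 of 10 were tested, Clec9a was at 0, and they summed to at most 20.2 TPM in any library.

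The receptor gene Csf1r was lower in GC+GW9662 than in Control. Among signalling genes Tyrobp, the ITAM adaptor that couples TREM2 to downstream kinases in myeloid cells, was instead higher in GC+GW9662. It measured 2182 and 2521 TPM in Control, 405, 207 and 275 TPM in GC, and 4581, 4806 and 4664 TPM in GC+GW9662, where it passed as higher than Control (0.997 ± 0.24, limma adjusted p = 0.0079). Trem2 stood at 192 ± 1.32 TPM, then 28.5 ± 7.99 TPM and 282 ± 3.38 TPM in the same order (0.55 ± 0.19 in GC+GW9662 against Control, adjusted p = 0.036), while Csf1r there stood at 19.6% of Control (log2 -2.35, or -1.02 with the length trend removed). Tyrobp and Trem2 were both named after their values were seen. Neither is given here with the length trend removed. In GC+GW9662 against Control that step took Aif1, with a longest transcript of 875 bases, from 0.28 to -0.27. Whether the contrast of Tyrobp and Trem2 with Csf1r holds on that scale was not tested.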
